A study of Mus musculus with 28 samples.

Results

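The transcripts of the mouse mitochondrial genome were followed in wild-type mIMCD-3 cells, an epithelial line from the mouse inner medullary collecting duct, together with 3 nuclear pseudogenes that repeat part of them. The set held every gene whose symbol starts with mt- (37 genes: 13 mRNAs, 2 rRNAs and 22 tRNAs) and the nuclear copies Gm10222, Gm28439 and Gm28661. These were 40 of the 45706 genes with values. Gene identifiers were paired with symbols through the GENCODE M21 annotation, which named 45143 of them.

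RNA-seq libraries came from 7 groups of 4 libraries each (n = 4 throughout). All cells were wild type and untreated, and RNA was taken 4 days after full confluency in each group. The polyclonal WT group was the uncloned line. The monoclonal WT5 line was grown from 1 sorted cell of it, and subclones 1 to 5 were each grown from 1 sorted WT5 cell. Every monoclonal group is therefore a single clone, and what belongs to the clone, its time in culture or its preparation cannot be told apart. By the study's methods, the polyclonal libraries were read as short single ends and the monoclonal ones as longer paired ends, at other times, so read length and group cannot be told apart between polyclonal WT and WT5. The read length of the subclones is not stated separately. The values of the subclones were deposited in another table than those of polyclonal WT and WT5. The methods call the replicates biological and a figure legend calls them technical, so the p-values below measure the spread between libraries, which may be technical. All values are TPM, a measure of transcript share: read counts corrected for transcript length and scaled so that each library sums to 1000000. How transcripts close to the read length were corrected is not stated. Short members may therefore not be on one scale between groups. Epithelial and tubule genes were present (Krt8, Krt18, Epcam and Pax8 had group means of at least 117 TPM in every group), whereas genes of water and salt transport in principal cells were low or absent. The water channel Aqp2 was listed at 0 in all libraries, the water channel Aqp3 averaged below 1 TPM in each group, and Scnn1a, of the sodium channel, averaged at most 1.10 TPM. Avpr2, the vasopressin receptor, averaged 10.6 TPM in polyclonal WT and at most 0.2 TPM in the other groups.

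Mitochondria carry a small circular genome whose genes are transcribed from both strands into long precursors. Transfer RNAs sit between most of the other genes, and cutting them out releases the mRNAs and rRNAs, most of which then receive a poly(A) tail. The mRNAs encode subunits of 4 complexes of oxidative phosphorylation: NADH dehydrogenase (complex I), cytochrome b of complex III, cytochrome c oxidase (complex IV) and ATP synthase. The rRNAs and tRNAs build the mitochondrion's own ribosome and translation system. Over evolution, pieces of this genome were copied into the nuclear chromosomes, where they remain as pseudogenes. A read from a stretch that both carry can be assigned to either, so the nuclear copies are shown beside the genes they resemble.

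The 3 nuclear copies lay on the minus strand of chromosome 1 (GRCm38), at chr1:24611535-24612410 for Gm28439, chr1:24612407-24612700 for Gm10222 and chr1:24614885-24615565 for Gm28661. All are annotated as unprocessed pseudogenes. They belonged to a run of 7 pseudogenes between bases 24611535 and 24616197 that repeated the mitochondrial order from mt-Co1 to mt-Nd4. Gm28661 matched bases 1 to 681 of mt-Co2 (684 bases, chrM:7013-7696) without a mismatch. Gm10222 matched bases 1 to 294 of the 297 bases of mt-Nd4l (chrM:9877-10173), and Gm28439 matched bases 1 to 876 of the 1378 bases of mt-Nd4 (chrM:10167-11544), also without a mismatch. The first bases of the mt-Co2 and mt-Nd4l pairs are printed because these genes change direction below when their copies are added. Reads from these stretches hold nothing that separates gene from copy.
mt-Co2, bases 1 to 120: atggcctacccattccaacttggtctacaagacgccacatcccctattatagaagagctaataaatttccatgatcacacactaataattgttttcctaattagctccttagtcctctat
Gm28661, bases 1 to 120: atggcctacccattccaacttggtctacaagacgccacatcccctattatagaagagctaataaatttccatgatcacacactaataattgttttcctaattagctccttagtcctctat
mt-Nd4l, bases 1 to 150: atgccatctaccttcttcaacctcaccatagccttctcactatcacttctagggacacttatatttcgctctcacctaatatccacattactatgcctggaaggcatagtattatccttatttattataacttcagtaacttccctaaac
Gm10222, bases 1 to 150: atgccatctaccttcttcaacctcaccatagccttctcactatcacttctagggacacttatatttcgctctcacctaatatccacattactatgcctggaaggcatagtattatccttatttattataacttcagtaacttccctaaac

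The other 4 pseudogenes of the run were Gm29216 (492 bases of mt-Co1, 6 mismatches), Gm10925 (678 bases of mt-Atp6, none), Gm28437 (783 bases of mt-Co3, none) and Gm28438 (345 bases of mt-Nd3, 1 mismatch). The mismatches of Gm29216 lay within its first bases, T1056A, C1057T, A1059G, A1060G, C1062A and A1066T, counted from 1 at the 5′ end of mt-Co1 with the base of mt-Co1 first. The mismatch of Gm28438 was T3C, counted from the 5′ end of mt-Nd3. The stretches that hold these differences are printed with the mismatched bases in capitals, since only reads across them can separate gene from copy within the aligned part.
mt-Co1, bases 1054 to 1127: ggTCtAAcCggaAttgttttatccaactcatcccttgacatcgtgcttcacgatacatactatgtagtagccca
Gm29216, bases 1 to 74: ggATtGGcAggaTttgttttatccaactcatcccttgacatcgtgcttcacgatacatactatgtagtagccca
mt-Nd3, bases 1 to 60: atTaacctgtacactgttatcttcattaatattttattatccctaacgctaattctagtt
Gm28438, bases 1 to 60: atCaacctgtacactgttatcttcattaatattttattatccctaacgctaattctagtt
In all, 11 further nuclear genes with values shared at least 1 stretch of 50 bases with a mitochondrial gene. Of these, Gm13340 (a diverged copy of mt-Co1) and Gm13341 (of mt-Co2), both on chromosome 2, reached mean TPM of 6.95 and 7.10 in polyclonal WT and lay below 1 elsewhere. mt-Rnr1, mt-Nd1, mt-Atp8, mt-Nd6 and mt-Cytb shared no such stretch, so no annotated nuclear transcript matches them exactly over that length. Only exact matches to annotated transcripts were searched. The bases of chromosome 1 between Gm28661 and Gm10925, where mt-Atp8 would fall in the mitochondrial order, were not searched.

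The mRNAs with all their nuclear copies added made up 9.55 ± 2.52% of all TPM in polyclonal WT (SD), 5.77 ± 0.496% in WT5 and between 10.5% and 12.8% on average in the subclones. In 4 of 20 subclone libraries mt-Atp8 was listed at 0, which lowers the mRNA share there. In WT5 the 4 libraries lay between 5.04% and 6.18%, below all other libraries (the lowest of which was a polyclonal one at 6.78%). The 2 rRNAs made up 0.103% in polyclonal WT, 0.0578% in WT5 and 0.0664% to 0.106% in the subclones. The tRNAs made up 1.33% in polyclonal WT and were listed at 0 in the other groups. These shares are descriptions of the TPM scale, in which a rise of 1 gene lowers the rest, and they say nothing of RNA per cell.

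**Figure D1:**
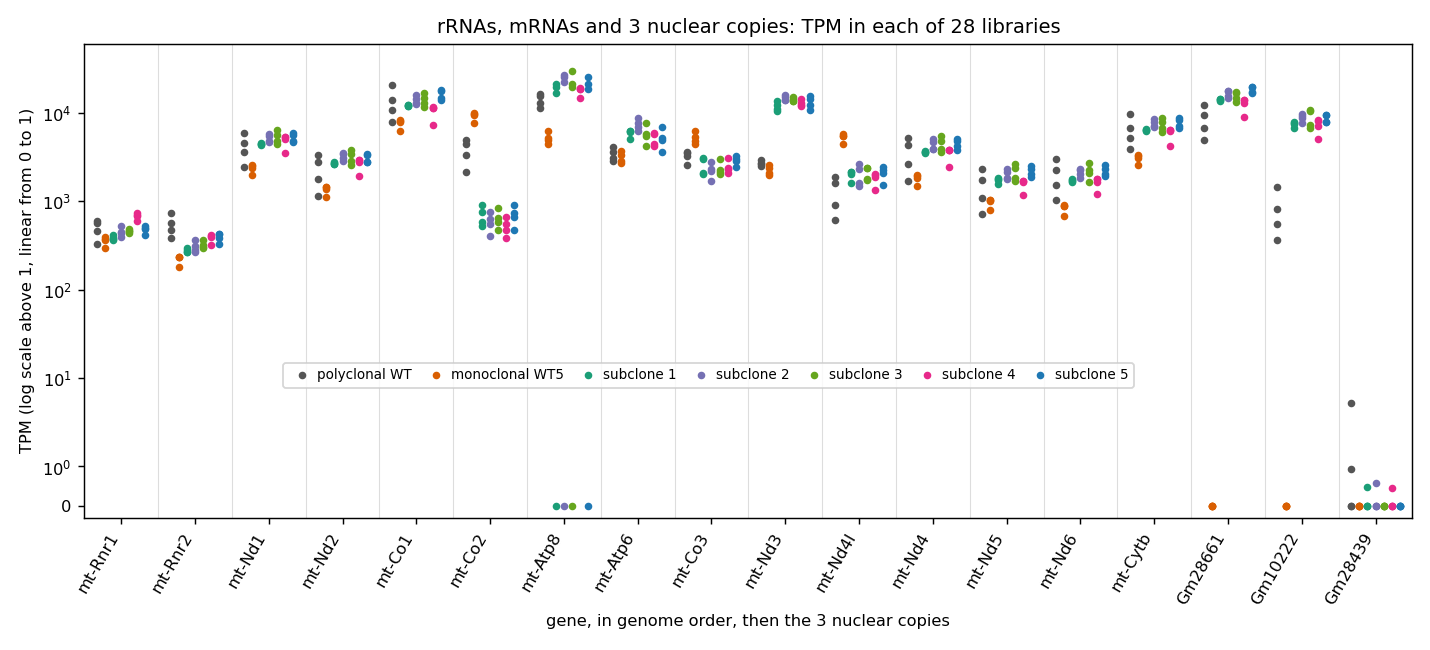
TPM (vertical axis, logarithmic above 1) of the 2 rRNAs, 13 mRNAs and 3 nuclear copies, 1 point per library, coloured by group. WT5 lies lowest for mt-Nd6 and mt-Cytb, while mt-Co2 and mt-Nd4l are highest in WT5, where Gm28661 and Gm10222 are listed at 0.

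Of the 4 mRNAs that share no stretch with nuclear genes, mt-Nd1, mt-Nd6 and mt-Cytb were lower in WT5 than in its 5 subclones, and mt-Atp8 could not be fitted there. mt-Cytb, which encodes cytochrome b, had 6805, 5169, 3853 and 9635 TPM in the polyclonal libraries. Its WT5 libraries had 3258, 3338, 3085 and 2551 TPM, and the 20 subclone libraries ran from 4214 through a median of 6725 to 8841 TPM. All WT5 libraries lay below all polyclonal and subclone ones. Against WT5, mt-Cytb was 1.92- to 2.52-fold higher in the subclones (1.23 to 1.63 log2 units, SE 0.0915 to 0.179, highest adjusted p 5.48e-04), and against polyclonal WT it was 2.08-fold lower in WT5 (-1.13 log2 units, SE 0.301, adjusted p = 0.00980). The second of these calls lay close to the p threshold: over 19 alternatives the difference ran from -1.48 to -0.85 log2 units and the highest adjusted p was 0.0479. Here and below, differences in log2 units come from z-scores of log2(TPM) within each library, rescaled by the mean SD of the libraries. They can exceed or fall below the log2 of the fold beside them, which is a ratio of mean TPM. The p-values come from limma with Benjamini-Hochberg adjustment over all genes fitted. A gene counts as called at an adjusted p below 0.01 with a difference above 1 log2 unit on the rescaled scale.

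mt-Nd1 and mt-Nd6, subunits of complex I, showed the same rise from WT5 to the subclones. mt-Nd1 had 4565, 3574, 2407 and 5911 TPM in polyclonal WT, against 2499, 2589, 2395 and 1993 TPM in WT5. In the subclones it ran from 3552 through 4776 to 6352 TPM, with no overlap with WT5, 1.86- to 2.24-fold higher. mt-Nd6, the only mRNA encoded on the minus strand, had 2249, 1507, 1031 and 2988 TPM in polyclonal WT, whereas WT5 had 886, 907, 877 and 685 TPM and the subclones ran from 1196 through 1876 to 2673 TPM. It was 1.92- to 2.63-fold higher in the subclones than in WT5, again without overlap. Against polyclonal WT, mt-Nd1 overlapped in WT5 through polyclonal replicate 3 and missed the threshold (-0.88 log2 units, SE 0.293, adjusted p = 0.0258), and mt-Nd6 missed it without overlap (-1.28 log2 units, SE 0.344, adjusted p = 0.0104). The polyclonal libraries differed widely among themselves: the SD of mt-Nd6 was 44.1% of its mean there, against 12.3% in WT5. Of the 15 mRNAs and rRNAs, 14 were lowest in polyclonal replicate 3, and 11 were highest in replicate 4. mt-Nd6 lies opposite precursor RNA of the other strand, and whether counting used the strand is not stated, so the strands cannot be told apart.

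mt-Nd2 and mt-Nd5, also complex I subunits, share only short stretches with nuclear genes (81 of 989 and 135 of 1775 windows of 50 bases), and adding those copies raised the polyclonal means from 2266 to 2267 TPM and from 1465 to 1467 TPM and no other group. mt-Nd2 averaged 2266 TPM in polyclonal WT, 1354 in WT5 and 2637 to 3209 in the subclones. It was 1.95- to 2.37-fold higher in each subclone than in WT5. mt-Nd5 averaged 1465 TPM in polyclonal WT, 967 in WT5 and 1560 to 2179 in the subclones. It was 1.61- to 2.25-fold higher than in WT5, with adjusted p below 0.01 in 5 of 5 subclones and a difference past 1 log2 unit in 3. Neither passed the test between WT5 and polyclonal WT (adjusted p = 0.0701 for mt-Nd2 and 0.160 for mt-Nd5).

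For mt-Co2, subunit 2 of cytochrome c oxidase, the deposited value and the sum with its copy gave opposite directions. The gene had 4864, 3323, 2148 and 4494 TPM in polyclonal WT. It had 9744, 9946, 9391 and 7613 TPM in WT5 and 386 through 606 to 913 TPM in the subclones. Gm28661, identical to it over 681 bases, had 9335, 6644, 4881 and 12359 TPM in polyclonal WT, stood at 0 in each of the 4 WT5 libraries and ran from 8902 through 14712 to 19757 TPM in the subclones. The copy thus held 68.8 ± 3.41% of the pair's TPM in polyclonal WT, 0% in WT5 and 95.4% to 96.6% in the subclones.

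Taken alone, mt-Co2 was 2.47-fold higher in WT5 than in polyclonal WT (1.22 log2 units, SE 0.284, adjusted p = 0.00505) and 13.2- to 17.7-fold lower in the subclones than in WT5 (-3.83 to -3.42 log2 units, highest adjusted p 7.13e-05). The sum of gene and copy was 14199, 9966, 7028 and 16852 TPM in polyclonal WT, against 9744, 9946, 9391 and 7613 TPM in WT5, and the groups overlapped (-0.45 log2 units, SE 0.302, adjusted p = 0.205). With Gm13341 also added, the sum ran from 9570 through 15260 to 20670 TPM in the subclones. It was 1.42- to 2.07-fold higher than in WT5, with adjusted p below 0.01 in 5 of 5 subclones and a difference past 1 log2 unit in 3. Only subclone 4 overlapped WT5, through its replicate 1.

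mt-Nd4l, a small subunit of complex I, behaved alike. It had 1874, 914, 619 and 1628 TPM in polyclonal WT, whereas WT5 had 5459, 5791, 5444 and 4444 TPM and the subclones ran from 1338 through 2019 to 2611 TPM. Gm10222 had 811, 550, 361 and 1434 TPM in polyclonal WT, was listed at 0 in WT5 and ran from 5103 through 7907 to 10622 TPM in the subclones. Alone, mt-Nd4l was 2.56- to 2.92-fold lower in the subclones than in WT5 and was called in all 5. Summed with Gm10222, it was 1.69- to 2.06-fold higher in the subclones (1.01 to 1.41 log2 units, highest adjusted p 0.00226), again called in all 5. On plain log2(TPM), without z-scores, the sum differed by 0.74 to 1.04.

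mt-Nd4l stood apart in polyclonal WT. Its sum was 2686, 1463, 980 and 3061 TPM there, all below the WT5 libraries, and WT5 was 2.58-fold higher (1.35 log2 units, SE 0.384, adjusted p = 0.0132), past the size but not the p threshold. With all copies added, mt-Nd4l made up 2.05 ± 0.536% of mitochondrial mRNA TPM in polyclonal WT, against 9.15 ± 0.241% in WT5 and 8.41% to 8.91% in the subclones. mt-Nd3, another short mRNA, made up 3.48% in polyclonal WT, 8.10% in WT5 and 10.6% to 12.3% in the subclones. The transcripts of mt-Nd4l and mt-Nd3 are 297 and 348 bases long. mt-Atp8, the shortest mRNA at 204 bases, went the other way between polyclonal WT and WT5. It made up 15.02% on average in polyclonal WT, 9.06% in WT5 and 16.86% in subclone 4. Low polyclonal shares were thus not common to all short mRNAs. The read lengths named above differ between polyclonal WT and WT5, and their part in these shares was not tested. The mRNA total includes mt-Atp8, listed at 0 in 4 of 20 subclone libraries, which raises the shares of the other genes there. In subclone 4, which had no such library, the shares averaged 8.41% for mt-Nd4l and 12.3% for mt-Nd3.

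mt-Nd4, a complex I subunit encoded next to mt-Nd4l, had almost no TPM in its copy. Gm28439, which repeats its first 876 bases, was listed at 0 in 2 polyclonal libraries and at 0.930 and 5.28 TPM in the others, at 0 throughout WT5, and above 0 in 3 of 20 subclone libraries, at no more than 0.570 TPM. mt-Nd4 had 4271, 2664, 1694 and 5129 TPM in polyclonal WT, whereas WT5 had 1930, 1964, 1829 and 1494 TPM and the subclones ran from 2464 through 3862 to 5443 TPM. It was 1.93- to 2.47-fold higher in the subclones than in WT5 and was called in all 5, with or without the copy.

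The 4 copies outside the rule shifted values between libraries as well. mt-Co3, a cytochrome c oxidase subunit, had 4752, 6179, 5334 and 4481 TPM in WT5 and 1683 through 2341 to 3222 TPM in the subclones, so that alone it was 1.81- to 2.30-fold lower there (adjusted p below 0.01 in 5 of 5, none past 1 log2 unit). Its copy Gm28437 had 3374, 2228, 2499 and 2814 TPM in WT5 and 8198 through 10841 to 13001 TPM in the subclones. The sum of both was 1.55- to 1.83-fold higher in the subclones than in WT5, with no overlap. Between WT5 and polyclonal WT, mt-Co3 stood at 0.54 log2 units higher alone (adjusted p = 0.0145) and at -0.98 log2 units when summed (SE 0.119, adjusted p = 1.45e-04).

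mt-Atp6, a subunit of ATP synthase, had 3566, 3096, 2856 and 4064 TPM in polyclonal WT, against 3320, 3688, 2821 and 2734 TPM in WT5. Its copy Gm10925 was higher, with 12313, 10796, 9581 and 13124 TPM in polyclonal WT against 4338, 4237, 4627 and 3943 TPM in WT5. The gene alone overlapped between the groups (-0.26 log2 units, adjusted p = 0.190), whereas the sum was 2.00-fold lower in WT5 (-1.13 log2 units, SE 0.145, adjusted p = 2.03e-04). In the subclones the sum ran from 7781 through 11465 to 14678 TPM, 1.34- to 1.81-fold above WT5 and with adjusted p below 0.01 in each; only replicate 1 of subclone 4 overlapped WT5. The copy's share ranged from 45.2% to 59.6% on average among the subclones.

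mt-Nd3, a complex I subunit, kept an increase under both readings. Alone it had 2089, 1996, 2363 and 2595 TPM in WT5 and 10376 through 13634 to 15911 TPM in the subclones, 5.23- to 6.56-fold higher. Gm28438, which differs from it by T3C, had 2636, 2848, 1968 and 2082 TPM in WT5. In polyclonal WT it had 314, 692, 434 and 316 TPM, and it was listed at 0 in 15 of 20 subclone libraries. The sum was 2.55- to 3.19-fold higher in the subclones than in WT5 (1.51 to 2.00 log2 units, highest adjusted p 6.44e-05). Against polyclonal WT, WT5 stood lower for the gene alone (-0.42 log2 units, adjusted p = 0.00570) and higher for the sum (0.42 log2 units, SE 0.0544, adjusted p = 2.14e-04), both under 1 log2 unit.

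mt-Co1, the catalytic subunit of cytochrome c oxidase, lost little to its copies outside polyclonal WT. Gm29216, which covers bases 1054 to 1545 of it, had 2894, 1967, 1178 and 2799 TPM in polyclonal WT, or 14.4% of the pair, against at most 18.8 TPM in any WT5 or subclone library. mt-Co1 averaged 13376 ± 5598 TPM in polyclonal WT, 7617 ± 937 in WT5 and 10378 to 16132 in the subclones. It was 1.36- to 2.12-fold higher in the subclones than in WT5 (adjusted p below 0.01 in 5 of 5, past 1 log2 unit in 3), and only subclone 4 overlapped WT5, through replicate 1. With all copies added, WT5 stood 2.04-fold below polyclonal WT (-1.09 log2 units, SE 0.318, adjusted p = 0.0150). Gm29216 has 492 bases against 1545 in mt-Co1, and TPM is corrected for length. A read given to this copy therefore weighs more in the sum than a read given to the gene, which enlarges the polyclonal sum.

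**Figure D2:**
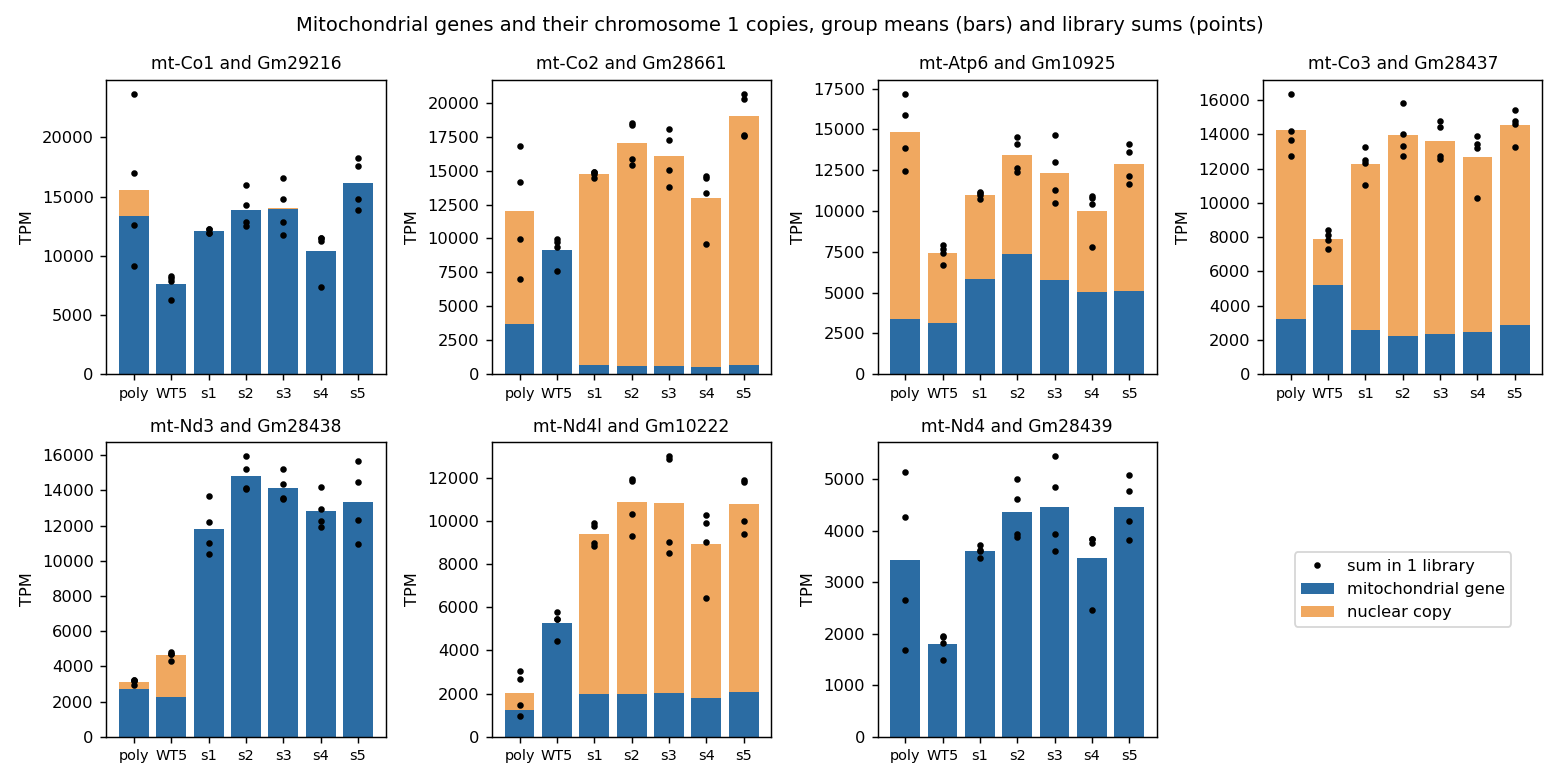
Group mean TPM of 7 mitochondrial genes (blue) with the chromosome 1 copy of each stacked on top (orange), and the sum in each library as points. In WT5, Gm28661 and Gm10222 are at 0, and the sums of mt-Co2 and mt-Nd4l in WT5 lie below those of the subclones (only replicate 1 of subclone 4 overlaps WT5 for mt-Co2).

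**Figure D3:**
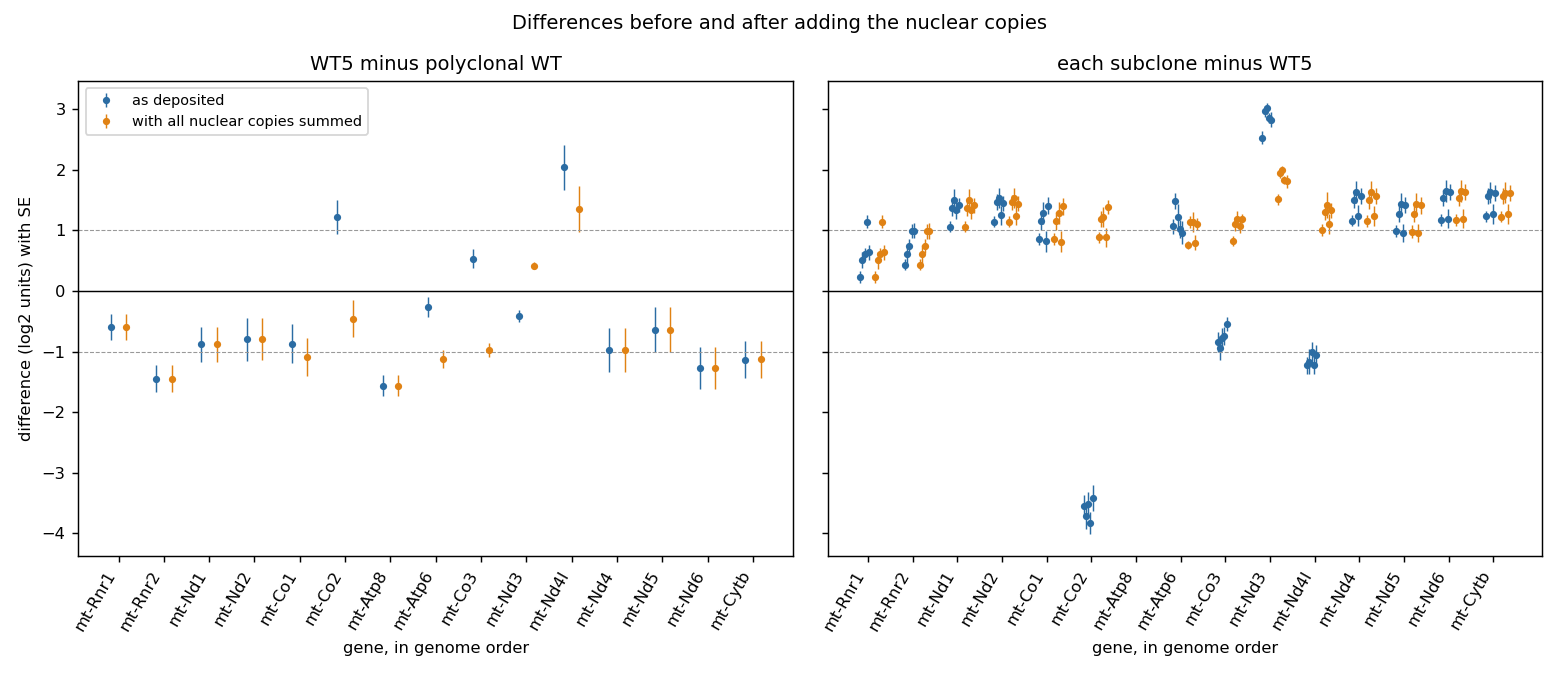
Differences in log2 units with SE for each rRNA and mRNA, WT5 minus polyclonal WT (left) and each of the 5 subclones minus WT5 (right), as deposited (blue) and with all nuclear copies summed (orange); dashed lines mark 1 log2 unit. mt-Co2, mt-Co3 and mt-Nd4l turn from lower to higher in the subclones once the copies are added; mt-Atp8, listed at 0 in some subclone libraries, has no point on the right.

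Between WT5 and polyclonal WT, 15 of the 40 members were above 0 in all 8 libraries and could be tested, and 5 were called, where 23.3% of all 13723 genes tested were called. mt-Co2 and mt-Nd4l were called higher in WT5 (background 12.4% higher), and mt-Rnr2, mt-Atp8 and mt-Cytb were called lower (background 10.9%). With the 3 copies added, 3 were called, all lower: mt-Rnr2, mt-Atp8 and mt-Cytb. With every nuclear copy added, mt-Atp6 joined them. Without polyclonal replicate 3, 10 members were called as deposited and 8 with the 3 copies added, and without polyclonal replicate 2 or any 1 of the WT5 libraries 3 were called as deposited. The share of all genes called was not counted for these fits, so the counts say nothing particular of the members. Over 20 settings, the reported one included, mt-Rnr2 and mt-Atp8 had an adjusted p below 0.01 in 20, mt-Nd4l in 19, mt-Co2 in 12 (highest adjusted p 0.0337) and mt-Cytb in 7. Settings that changed only the size rule or the p threshold repeat the reported adjusted p, so the 20 are not all separate tests. With a z-score difference above 1 as the size rule, none of the 6 members with an adjusted p below 0.01 passed. The median over the 15 members was -0.80 log2 units as deposited and -0.97 with every copy added, against 0.03 over all genes.

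The 5 comparisons of subclones with WT5 share the WT5 libraries. In them 14 members could be tested, and 8 were called the same way in all 5: mt-Nd1, mt-Nd2, mt-Nd3, mt-Nd4, mt-Nd6 and mt-Cytb higher, and mt-Co2 and mt-Nd4l lower. In subclones 1 to 5 in turn, 7, 9, 9, 8 and 8 members were called higher, where 1.24%, 0.909%, 1.67%, 2.4% and 1.46% of all genes were, and 2 were called lower in each, where 1.76%, 1.62%, 1.94%, 2.33% and 1.88% were. By adjusted p alone, 10, 9, 11, 11 and 11 were higher (background 12.7%, 13.4%, 8.65%, 18.2% and 10.2%) and 3 were lower in each (background 13.6%, 12.6%, 10.9%, 19.2% and 11.7%). Over all genes tested, 0.238% were called higher in all 5 and 0.274% lower in all 5. With the 3 copies added, 7 of 14 were called in all 5, all higher (background 0.245%): mt-Nd4l had changed sides and mt-Co2 no longer passed the size in each subclone. With every copy added, 7, 12, 12, 9 and 12 members were called higher (background 1.23%, 0.924%, 1.7%, 2.4% and 1.48%), and 13, 12, 14, 14 and 14 were higher by adjusted p alone (background 12.6%, 13.3%, 8.64%, 18.2% and 10.2%). The difference was positive for 14 of 14 members in each subclone. The median ran from 1.00 in subclone 1 to 1.42 log2 units in subclone 3, against at most 0.01 in size over all genes. The mean SD of log2(TPM) was 3.07 in WT5 and 2.95 to 3.01 in the subclones, so z-scores raise highly expressed genes in the subclones. On plain log2(TPM) the medians over the members were 0.84 to 1.11. Over all genes they were -0.0985 to -0.0373, and over the 1% most expressed genes -0.0605 to 0.0231. Many of the members' folds lay near the size threshold. On log2(TPM) without z-scores, the increases were smaller and the decreases larger, 3 members were called in all 5 subclones (mt-Nd3 higher, mt-Co2 and mt-Nd4l lower), and 1 was with the 3 copies added (mt-Nd3). At a z-score difference above 1, only mt-Co2 was called in all 5.

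mt-Atp8, a small ATP synthase subunit, has a transcript of 204 bases (chrM:7766-7969) whose end lies within the start of mt-Atp6. The shared 43 bases are in capitals in its last 63 bases, which show where a read can belong to both mRNAs.
mt-Atp8, bases 142 to 204: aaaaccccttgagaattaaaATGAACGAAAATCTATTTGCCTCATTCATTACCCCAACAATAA
It had 15408, 13060, 11468 and 16181 TPM in polyclonal WT, against 4435, 5254, 6261 and 4875 TPM in WT5, where it was 2.69-fold lower (-1.57 log2 units, SE 0.173, adjusted p = 8.22e-05). All 4 subclone 4 libraries had 14710 to 18869 TPM. In subclones 1, 2, 3 and 5, 1 library each was listed at 0 (replicates 4, 1, 4 and 3) while the 3 others had 16913 to 29767 TPM. No comparison with the subclones could be fitted for mt-Atp8, since the fit needed values above 0, and no group mean is given for these 4 subclones.

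The mitochondrial rRNAs were the members that passed the p threshold in the test over all 5 subclones, as 24.6% of all genes did. mt-Rnr1, the 12S rRNA of the small ribosomal subunit, had 561, 457, 331 and 592 TPM in polyclonal WT, against 393, 377, 367 and 293 TPM in WT5. Subclone 1 averaged 386 ± 19.4 TPM, subclones 2 and 3 had 453 ± 52.4 and 461 ± 16.9 TPM, subclone 5 had 483 ± 45.7 TPM, and subclone 4 had 676 ± 63.0 TPM. The 4 libraries of subclone 4 had 590, 706, 736 and 673 TPM, above every other WT5 and subclone library.

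mt-Rnr2, the 16S rRNA of the large subunit, had 563, 477, 385 and 743 TPM in polyclonal WT, against 233, 236, 234 and 180 TPM in WT5, where it was 2.46-fold lower (-1.45 log2 units, SE 0.224, adjusted p = 5.75e-04). Subclone 1 averaged 278 ± 12.8 TPM, subclones 2 and 3 had 304 ± 43.2 and 319 ± 30.6 TPM, and subclones 4 and 5 had 382 ± 42.7 and 388 ± 45.8 TPM. Over the 5 subclones, mt-Rnr1 spanned 0.91 log2 units between the highest and lowest group (moderated F test, adjusted p = 5.05e-05) and mt-Rnr2 0.56 log2 units (adjusted p = 0.00460), both under the size of 1 log2 unit.

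In the order of mt-Rnr1 levels, subclones 2, 3 and 5 did not differ from each other beyond their spread (adjusted p of 0.474 or more, over all genes and the 10 pairs), and subclone 4 stood above each of the other 4 (adjusted p from 9.09e-06 to 0.00311, differences of 0.50 to 0.91 log2 units). For mt-Rnr2, subclones 4 and 5 were above subclone 1 (adjusted p = 0.00454 and 0.00372), and the other 8 of the 10 pairs missed the threshold. The ratio of mt-Rnr2 to mt-Rnr1 within a library averaged 1.12 ± 0.115 in polyclonal WT, 0.618 ± 0.0187 in WT5, 0.564 ± 0.0239 in subclone 4, 0.671 to 0.721 in subclones 1 to 3 and 0.801 ± 0.0279 in subclone 5. How rRNA was kept out of the libraries is not stated beyond a standard protocol, so these levels describe the libraries and not the ribosomes. Between WT5 and the subclones, mt-Rnr1 passed the p threshold in 3 of 5 subclones and mt-Rnr2 in 4 of 5, with folds of 1.08 to 1.89 and 1.26 to 1.76.

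**Figure D4:**
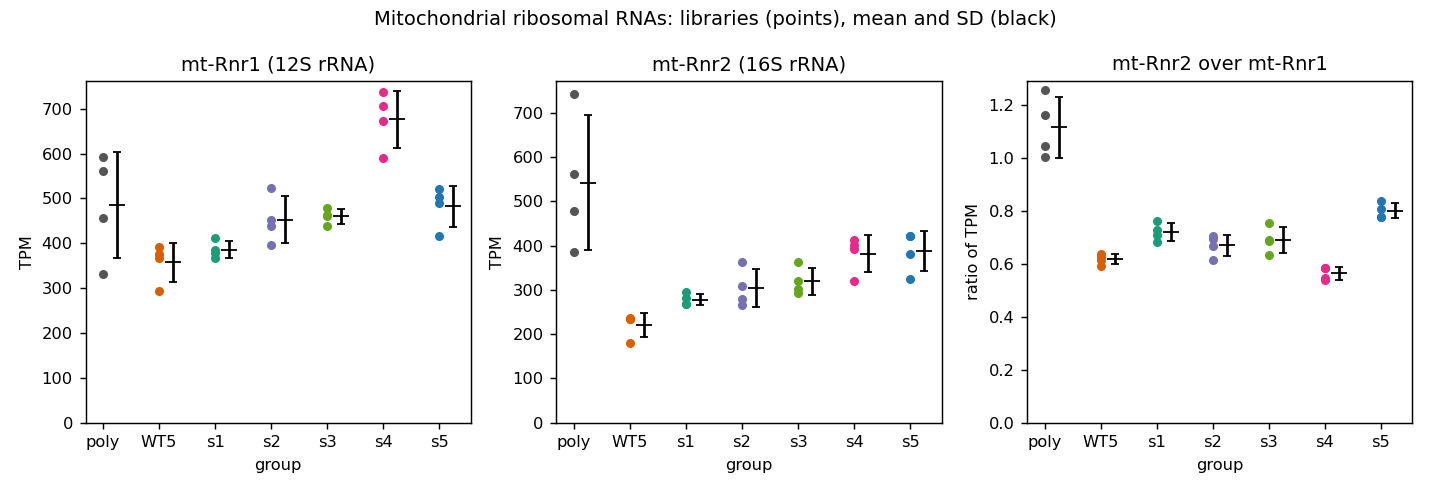
TPM of mt-Rnr1 and mt-Rnr2 and their ratio (vertical axes from 0), with 1 point per library and the mean and SD of 4 libraries in black. Subclone 4 has the highest mt-Rnr1 of all WT5 and subclone libraries (590 to 736 TPM) and the lowest mean ratio, 0.564.

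Among the 5 subclones no member was called (limma, 0 of 16 tested; 5.32% of all genes tested were called). At an unadjusted p below 0.05 there were 7, and the share of all genes at that level was not counted. An unequal-variance test also called 0. An adjusted p below 0.01 alone held for the 2 rRNAs, where 24.6% of all genes passed, so the members did not stand out. mt-Nd3 missed that threshold over all 5 subclones (adjusted p = 0.0119), but among the pairs it was higher in subclones 2 and 3 than in subclone 1 (0.43 and 0.49 log2 units, adjusted p = 0.00978 and 0.00417 over all genes and the 10 pairs). Subclone 4 was lowest or near lowest for several mRNAs: its mean was 10378 TPM for mt-Co1 against 16132 TPM in subclone 5 and 12481 TPM for Gm28661 against 18333 TPM, with adjusted p of 0.0425 and 0.0429 in the moderated F test over all 5 subclones. Its replicate 1 was the lowest of its 4 libraries for 14 of 15 mRNAs and rRNAs. Neither mt-Cytb nor mt-Nd1 shares a 50-base stretch with an annotated nuclear transcript. The ratio of mt-Cytb to mt-Nd1 was 1.21 ± 0.0228 in subclone 4, 1.39 ± 0.00689 in subclone 3 and 1.44 to 1.47 in the other 3. It was 1.29 ± 0.00983 in WT5 and 1.54 ± 0.0875 in polyclonal WT. The libraries of subclone 4 did not overlap those of the other subclones in this ratio, including replicate 1.

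The tRNAs had values above 0 in polyclonal WT alone. All 22 were listed at 0 in each of the 24 WT5 and subclone libraries, so that no fold is given. In polyclonal WT, 21 were above 0 in at least 1 library and 15 in all 4, and mt-Tf, for phenylalanine, was listed at 0 throughout. The highest tRNAs and 2 low ones are printed whole to show how short these molecules are beside the reads.
mt-Ts1, chrM:6870-6938, minus strand: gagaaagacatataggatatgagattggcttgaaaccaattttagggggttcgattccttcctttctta
mt-Te, chrM:14071-14139, minus strand: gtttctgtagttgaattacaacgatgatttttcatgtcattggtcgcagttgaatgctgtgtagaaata
mt-Tl1, chrM:2676-2750, plus strand: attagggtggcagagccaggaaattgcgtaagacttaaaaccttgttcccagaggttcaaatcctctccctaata
mt-Tq, chrM:3772-3842, minus strand: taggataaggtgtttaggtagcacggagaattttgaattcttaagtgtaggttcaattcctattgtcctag
mt-Tf, chrM:1-68, plus strand: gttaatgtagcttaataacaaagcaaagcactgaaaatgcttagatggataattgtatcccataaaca

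mt-Ts1, a serine tRNA, had 9584, 5391, 4941 and 12235 TPM in the polyclonal libraries, a higher value than that of mt-Nd1 in each of them. At 69 bases, against 957 for mt-Nd1, few reads can give a high TPM. The values therefore do not rank the 2 RNAs by amount. mt-Te (glutamate) had 1497, 1159, 706 and 2028 TPM, and mt-Tl1 (leucine) had 925, 901, 611 and 1602 TPM. Replicate 3 was lowest and replicate 4 highest for all 3, as for most mRNAs. Next came mt-Tc (887 TPM on average), mt-Ta (812), mt-Ty (521), mt-Tn (333) and mt-Tp (254). The remaining 14 averaged 39.1 TPM or less.

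Of the 8 tRNA genes on the minus strand 7 averaged above 100 TPM, and of the 14 on the plus strand 1 did (mt-Tl1). The exception on the minus strand was mt-Tq, for glutamine, at 15.8, 9.67, 4.02 and 16.3 TPM. The medians were 666 TPM on the minus strand and 8.44 TPM on the plus strand. Lengths were alike, 66 to 71 bases on the minus strand and 59 to 75 on the plus strand. mt-Ta, mt-Tn, mt-Tc and mt-Ty stand together between mt-Nd2 and mt-Co1, and mt-Ts1 overlaps the end of mt-Co1 by 3 bases. Without a stated use of strand, reads from a minus-strand tRNA and from the precursor RNA opposite to it cannot be told apart.

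**Figure D5:**
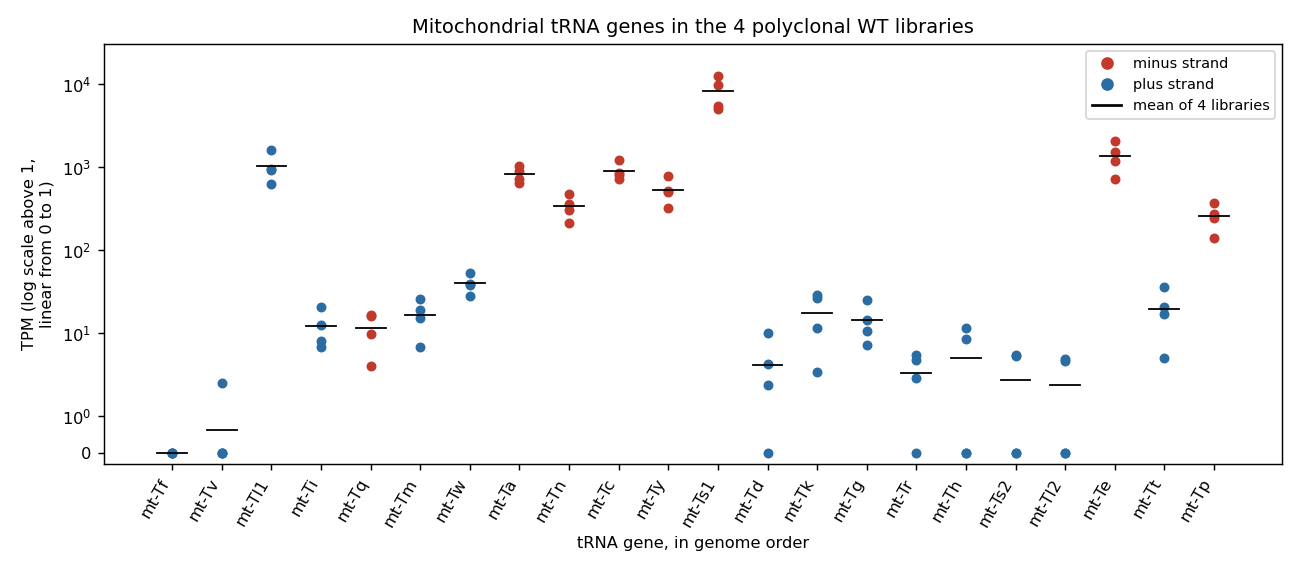
TPM of the 22 mitochondrial tRNA genes in the 4 polyclonal WT libraries (points) with their mean (line), in genome order; the vertical axis is logarithmic above 1. Genes on the minus strand (red) lie above 100 TPM on average except mt-Tq, and genes on the plus strand (blue) below 50 TPM except mt-Tl1.

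Short nuclear genes were at 0 in the same libraries. Of 1316 nuclear genes with transcripts under 80 bases, 116 were above 0 in some polyclonal library and 0 in any WT5 or subclone library. From 80 to below 150 bases the counts were 453 of 4361 in polyclonal WT and 1 in each other group, and from 200 to below 250 bases, where mt-Atp8 falls, they were 136 of 506 against 14 to 23. At 300 bases and above, 56.5% of 37443 nuclear genes were above 0 in some polyclonal library, against 48.4% to 50.6% in the other groups. The zeros of the tRNAs thus came with zeros for all 1316 nuclear genes under 80 bases.

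Some RNAs listed as usually lacking a poly(A) tail moved with the groups. Whether the histone genes on the list lacked a tail in these cells was not tested. Of 14 listed genes with values, 9 could be tested between WT5 and polyclonal WT. Of these, 4 were called, all higher in WT5, where 12.4% of all genes were called higher. The histone gene Hist2h2be went the other way, with an adjusted p below 0.01 but under the size (-0.76 log2 units, adjusted p = 9.23e-06). Rmrp, the RNA of a ribonuclease that processes RNA, averaged 4.42 TPM in polyclonal WT, 56.3 in WT5 and 24.1 to 59.2 in the subclones. Rn7s1, an RNA of the signal recognition particle, averaged 9.67, 469 and 43.6 to 78.5 TPM, and all of its 50-base windows also occur in other genes. Rpph1 and the histone gene Hist1h2bc were the other called genes. Against WT5, Rn7s1 was called lower in all 5 subclones (-3.37 to -2.39 log2 units). The summed level of the list was 110 to 174 TPM in polyclonal WT, 695 to 836 in WT5 and 193 to 770 in the subclones. The 4 called RNAs were higher in WT5 than in polyclonal WT, whereas mt-Rnr2 was lower and the tRNAs were at 0; their part in the rRNA values was not tested.

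Among the nuclear genes that act on mitochondrial transcripts, Tfam and Slirp were called lower in WT5 than in polyclonal WT. Of 22 genes for mitochondrial RNA synthesis and DNA upkeep, all tested, 1 was called between these groups, where 23.3% of all genes were. By limma 0 of the 22 were called in any subclone against WT5, where between 0.909% and 2.4% of all genes were called higher and between 1.62% and 2.33% lower, so that few calls say nothing particular of the list. An adjusted p below 0.01 alone held for 1 to 5 of them, where 8.65% to 18.2% of all genes were higher and 10.9% to 19.2% lower by that rule. Tfam, the factor that packs mitochondrial DNA and starts its transcription, averaged 179 ± 15.2 TPM in polyclonal WT, 92.4 ± 1.84 in WT5 and 93.8 to 106 in the subclones. It was called lower in WT5 than in polyclonal WT (-1.14 log2 units, SE 0.0508, adjusted p = 6.05e-07), and in the subclones it passed the p threshold in subclone 4 (0.33 log2 units). Polrmt, the mitochondrial RNA polymerase, averaged 23.2 ± 1.77, 34.1 ± 2.92 and 30.2 to 32.2 TPM in the same order, and had no adjusted p below 0.01 against WT5 in any subclone.

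The list for mitochondrial RNA processing, stability and decay held 36 tested genes, of which 1 was called lower in WT5 than in polyclonal WT (background 10.9% lower) and 0 in any subclone against WT5, where the background shares are those just given. The called gene was Slirp, which with Lrpprc stabilises mitochondrial mRNAs. Slirp averaged 112 ± 4.13 TPM in polyclonal WT, 23.9 ± 1.40 in WT5 and 19.0 to 26.9 in the subclones (-2.43 log2 units in WT5, adjusted p = 2.65e-08). Lrpprc averaged 48.7 ± 1.82, 36.3 ± 2.05 and 38.5 to 42.2 TPM. Relative to WT5, Lrpprc differed by 0.19 to 0.29 log2 units in the subclones, with adjusted p below 0.01 in 3 of 5 (subclones 1, 2 and 4).

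Of 11 nuclear regulators of mitochondrial biogenesis, 2 were called between WT5 and polyclonal WT, Ppargc1a and Nrf1, where 23.3% of all genes were called. Ppargc1a, a coactivator of biogenesis genes, averaged 6.05 ± 0.748 TPM in polyclonal WT, 1.10 ± 0.158 in WT5 and 3.09 to 3.86 in the subclones. It was called lower in WT5 than in polyclonal WT (-2.71 log2 units, adjusted p = 6.83e-07) and higher in all 5 subclones than in WT5 (1.44 to 1.76 log2 units, highest adjusted p 1.12e-04), where 0.238% of all genes were called higher in all 5. No library of WT5 overlapped the other groups. Nrf1, a transcription factor of respiratory genes, averaged 31.0 TPM in polyclonal WT, 77.5 in WT5 (called higher, 1.12 log2 units) and 44.3 to 54.6 in the subclones.

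Markers of other kidney cells stayed low: the 14 genes listed summed to 3.94 to 4.67 TPM in polyclonal WT, 10.1 to 12.1 in WT5 and 8.84 to 25.6 in the subclones, with 4 of them listed at 0 in polyclonal WT and 5 or 6 in the other groups. Umod of the thick ascending limb made up the top, at 11.6 TPM in subclone 5. The 15 collecting duct and epithelial genes summed to 2363 to 2733 TPM in polyclonal WT, 3979 to 4060 in WT5 and 2665 to 3148 in the subclones. The part of cell state in the mitochondrial values was not tested. Genes above 0 numbered 18681 to 19272 per polyclonal library and 16270 to 17004 per WT5 or subclone library. The depth of sequencing is unknown, since TPM keeps no read counts.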

How the data were processed

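The deposited TPM values were made by the authors from quality-trimmed reads with STAR 2.7.3a and RSEM 1.3.1 on GRCm38 (Ensembl release 81); CASAVA 1.8 is also named in the submitters' processing notes. RSEM estimates how reads that fit several genes are divided, so values of a gene and its copy depend on each other. The unit keeps no depth, so no counting interval is given.

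Sequences and coordinates came from the GENCODE M21 annotation of GRCm38. A nuclear gene counted as a copy of the mitochondrial gene with which it shared most 50-base windows. Log2(TPM) of genes above 0 in every library compared was z-scored per library, and groups were compared with limma 3.58.1 in R 4.3.3 (two-sided moderated test, or moderated F test over the 5 subclones), with p adjusted over all genes fitted. z-scores and the adjusted p threshold follow the study's methods. The size of 1 log2 unit follows its figure legends, whereas its methods set a z-score difference of 1, tried here as an alternative; limma replaced its Welch test. Genes were fitted as deposited, with the 3 copies added, and with all copies added. Replicate numbers were not paired, since same-numbered libraries of WT5 and each other group did not deviate together (correlations of -0.046 to 0.064). Same-numbered libraries of different subclones were not compared with each other in this way. On simulated data with 200 genes changed by 2 log2 units, 85.5% to 90.0% were recovered for WT5 against polyclonal WT and subclone 1 against WT5. Recovery of changes near 1 log2 unit, where many of the members lay, was not simulated.

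The members and the 6 gene lists were chosen with earlier results of these data known. All members could be named. Further copies were named at a mean TPM of 1 or more. Tfam, Polrmt, Lrpprc and Slirp were always named, as were the listed genes with the largest called differences. No per-sample column was left out.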

Additional observations from a re-analysis of the deposited data

Results flagged for a closer look

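Within groups of 4 libraries, 13 of 172 sets of values had 1 library whose gap to the next exceeded Dixon's critical value; chance alone flags about 1 in 20 groups, and genes of 1 library are not independent. Subclone 4 replicate 1 was the low one for mt-Nd1 (3552 TPM, others 5074 to 5380), mt-Nd2 (1937, others 2803 to 2906), mt-Co1 (7354, others 11219 to 11485), mt-Atp8 (14710, others 18449 to 18869), mt-Nd4 (2464, others 3770 to 3839), mt-Nd5 (1170, others 1652 to 1714) and mt-Cytb (4214, others 6291 to 6463). With all copies summed it was also the low one for mt-Co1 (7354), mt-Nd4 (2464) and mt-Atp6 (7781, others 10448 to 10891). WT5 replicate 4 was the low one for mt-Rnr2 (180 TPM, others 233 to 236), mt-Nd5 (789, others 1011 to 1040) and mt-Nd6 (685, others 877 to 907).

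The subclones differed in mt-Rnr1 (adjusted p = 5.05e-05, moderated F test) and in mt-Rnr2 (adjusted p = 0.00460). By this test 24.6% of all genes had an adjusted p below 0.01. Over 15 alternatives the adjusted p of mt-Rnr1 ran from 2.43e-05 to 0.00419, and that of mt-Rnr2 from 0.00282 to 0.0856.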

How the results depend on the processing

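Of 4592 values of single members recomputed under the alternatives, 7 changed sign, all when every nuclear copy was added in place of 3: mt-Co3 went to -0.98 log2 units in WT5 against polyclonal WT and to 0.83, 1.11, 1.20, 1.07 and 1.20 in subclones 1 to 5 against WT5, and mt-Nd3 to 0.42 in WT5 against polyclonal WT. For WT5 against polyclonal WT, 5 members were called one by one and 3 with copies added. These became 24 and 21 with a pseudocount of 0.1 on every gene above 0 somewhere (which admits the tRNAs at 0), and 0 and 0 at a z-score difference above 1. Except where given above, the share of all genes called under an alternative was not counted. One by one, 2 were called by an unequal-variance test and 3 with the replicate number as a block; with copies added, 5 at a pseudocount of 1 and 5 at an adjusted p below 0.05. Leaving out 1 library gave 3 to 10 one by one and 2 to 8 with copies added; the highest were without polyclonal replicate 3 (10 and 8), and the 3 one by one came without polyclonal replicate 2 or any 1 WT5 library. Members called in all 5 subclones numbered 8 one by one and 7 with copies added. They became 3 and 1 without z-scores, 4 and 2 when scaled to the sum of all other genes, and 1 and 0 at a z-score difference above 1; with copies added they were 12 with no size requirement. Leaving out 1 library gave 7 to 9 and 5 to 8. Between the subclones 0 were called either way, 2 and 2 with no size requirement, and 0 to 0 on leaving out 1 replicate. The block changed no other count by over 1.5 times. On plain log2(TPM), the median of all genes shifted by 0.24 between WT5 and polyclonal WT. TPM hides depth, so listed zeros have no detection limit here.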

Other observations

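mt-Nd5 and mt-Nd6 are neighbours on opposite strands. The ratio of mt-Nd6 to mt-Nd5 within a library averaged 1.35 ± 0.0782 in polyclonal WT, 0.867 ± 0.00425 in WT5 and 0.997 to 1.05 in the subclones, and the WT5 libraries (0.862 to 0.872) did not overlap any other group.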
